A study of Homo sapiens with 32 samples.

Results

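HNF4A (ENSG00000101076.16), AFP (ENSG00000081051.7) and VTN (ENSG00000109072.13) are the 3 genes described here, with all of their merged m6A peaks. They hold 15 of the 26104 peaks (6 in HNF4A, 2 in AFP and 7 in VTN) and are 3 of the 7978 genes with a peak. They were chosen because their levels at S3 and S4 differ greatly between the cell lines, and the input levels at S3 and S4 are the measured values they were chosen by. The difference between the lines at those stages is therefore given as a description without a test.

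H1 and MEL1, both established human embryonic stem cell lines, were sampled undifferentiated (S0) and at 3 points of a directed differentiation towards β-cells, namely S3 (posterior foregut), S4 (pancreatic progenitors) and S6 (β-like cells that are still immature). Poly(A) RNA of each of 2 preparations per line and stage was fragmented, a portion was kept as input, and the rest was enriched with an antibody to N6-methyladenosine (IP), which gives 16 input and 16 IP libraries. The sources used here name no sort and no genetic change for these cells, the groups differ in line and stage, and the stem cells were grown on a coat of recombinant vitronectin, the protein that VTN encodes. The input level of a gene is the sum of its input reads over its merged peaks in CPM, which are counts relative to the library size, scaled by the trimmed mean of M-values (TMM).

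HNF4A is a nuclear receptor that drives the transcription of liver, intestinal and pancreatic endoderm genes. AFP is the main plasma protein made by the fetal liver and the yolk sac, and VTN is an adhesive glycoprotein that hepatocytes secrete into plasma, where it binds integrins. Liver and pancreas arise from neighbouring parts of the foregut endoderm, and AFP and VTN are used as signs of the hepatic branch, whereas HNF4A is shared by several gut-derived organs.

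All 3 genes lie apart in the genome. In RefSeq's annotation of GRCh38.p14, AFP spans chr4:73436221-73456174, VTN spans chr17:28367284-28370307 and HNF4A spans chr20:44355699-44434596. Their promoters are shown because the genes were chosen for a like difference in input level between the lines. Each run holds the 250 bases before an annotated start site, 5′ to 3′ on the strand of the gene, and capitals mark matches on either strand to 6 motifs. The TATA box of many tissue-specific promoters was searched as TATAAA. Part of a homeodomain site known from liver promoters was searched as GTTAAT. The forkhead-type site was searched in a first form as TGTTTAC. Its second form, which differs near the end, was searched as TGTTTGC. The GATA-type site was searched as AGATAA. The last motif was the CCAAT box, which is found in promoters of many kinds. RefSeq lists 2 start sites for HNF4A, and VTN is on the minus strand.
AFP, chr4:73435971-73436220, plus strand: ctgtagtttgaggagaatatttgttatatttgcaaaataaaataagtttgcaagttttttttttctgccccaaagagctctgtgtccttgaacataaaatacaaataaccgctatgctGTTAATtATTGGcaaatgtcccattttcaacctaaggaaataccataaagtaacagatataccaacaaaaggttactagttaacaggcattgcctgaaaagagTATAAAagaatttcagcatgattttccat
VTN, chr17:28370308-28370557, minus strand: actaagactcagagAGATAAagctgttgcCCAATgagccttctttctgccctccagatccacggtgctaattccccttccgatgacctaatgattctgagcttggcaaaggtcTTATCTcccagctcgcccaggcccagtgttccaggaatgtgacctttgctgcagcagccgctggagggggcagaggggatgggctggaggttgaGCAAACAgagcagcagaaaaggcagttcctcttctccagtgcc
HNF4A upstream start, chr20:44355449-44355698, plus strand: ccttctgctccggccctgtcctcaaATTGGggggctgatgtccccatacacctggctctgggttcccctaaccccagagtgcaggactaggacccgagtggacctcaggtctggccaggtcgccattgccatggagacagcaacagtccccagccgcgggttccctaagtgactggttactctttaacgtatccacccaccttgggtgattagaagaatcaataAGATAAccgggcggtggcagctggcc
HNF4A downstream start, chr20:44400989-44401238, plus strand: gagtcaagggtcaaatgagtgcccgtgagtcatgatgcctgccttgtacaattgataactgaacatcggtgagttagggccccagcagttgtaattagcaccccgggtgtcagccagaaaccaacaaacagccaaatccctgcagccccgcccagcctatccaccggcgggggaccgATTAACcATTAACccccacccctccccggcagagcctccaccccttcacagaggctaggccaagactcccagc
The AFP window holds TATAAA 29 bases before the start and GTTAAT 132 bases before it. In the window of the downstream HNF4A start, 2 GTTAAT matches lie on the opposite strand, 73 and 66 bases before the start. VTN has AGATAA at 236 bases before its start and, on the opposite strand, at 137 bases, with TGTTTGC on that opposite strand at 43 bases, and the upstream HNF4A start has AGATAA 26 bases before it. Among 35116 RefSeq promoter windows of the same length, TATAAA is found in 10.7%, GTTAAT in 6.23%, AGATAA in 9.17%, TGTTTGC in 3.23%, TGTTTAC in 2.98% and CCAAT in 32%. None of the 4 windows printed holds TGTTTAC. A match describes the letters only.

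Depth in the merged peaks ranged from 2652830 to 6879256 reads per input library and from 2378881 to 15674899 per IP library. The MEL1 S4 IP libraries were the shallowest, at 2483580 and 2378881 reads. Mitochondrial transcripts took 11.6% to 41.0% of the input reads. Genes of undifferentiated cells summed to between 7024 and 11133 CPM at S0 and to between 398 and 485 CPM at S6. PDX1, the defining factor of pancreatic progenitors, was at 16.8 to 36.5 CPM at S3 and S4 in both lines, and at S6 it was at 67.2 and 57.7 CPM in MEL1 but at 3.02 and 2.21 CPM in H1. The 2 preparations of each group differed by more than sampling noise. Where each group has its own mean, p-values measure the spread between such preparations. In the main fits over both lines, the spread also holds differences between the lines that vary with stage. It was estimated over all stages, S3 and S4 included.

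At S0 the genes were at or near zero in H1 and low in MEL1. No AFP read was found in either H1 input library, which allows a level of up to about 0.703 CPM, and the MEL1 libraries held 17 and 24 reads, or 3.50 and 5.22 CPM. AFP was therefore at least 6.20-fold higher in MEL1, with the bound taken at 3 reads per library, and this difference was called (adjusted p = 3.2e-05, edgeR's quasi-likelihood test). VTN had 0 and 1 reads in H1 and 24 and 17 in MEL1, a ratio of 30.0 in unscaled CPM with an exact counting interval from 5.09 to 1212, and it was called too (adjusted p = 4.1e-05). HNF4A had 0.242 and 1.36 CPM in H1 against 2.26 and 1.74 CPM in MEL1. The fitted HNF4A difference was 1.26 on the log2 scale and was not called (adjusted p = 0.20 by the same test), although it was called without H1 S0 replicate 2 (2.93, adjusted p = 0.088). A gene was called at an adjusted p under 0.1 with at least a 2-fold change, and 6.45% of the 7973 genes tested were called higher and 8.87% lower in MEL1 at S0. The IP libraries of S0, which the test does not use, held 0 and 0 AFP reads in H1 and 21 and 25 in MEL1.

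At S3 the lines lay far apart. HNF4A was at 48.3 and 46.8 CPM in H1 and at 939 and 878 CPM in MEL1, a 19.1-fold ratio of the means. VTN was at 137 and 141 CPM in H1 and at 6709 and 5928 CPM in MEL1, a ratio of 45.4. AFP was at 5.32 and 4.33 CPM in H1 and at 10261 and 8369 CPM in MEL1, a ratio of 1931. AFP, the gene closest to zero in H1, has the widest gap. In H1, where AFP had no read at S0, the S3 level was at least 6.86-fold above S0. The HNF4A mean of H1 was 59.2-fold higher at S3 than at S0, although the S0 mean rests on 7 reads.

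At S4 the gap was wider in all 3 genes. AFP was at 22503 and 26655 CPM in MEL1 and at 7.16 and 5.35 CPM in H1, a 3930-fold ratio of the means. VTN was at 20191 and 19102 CPM in MEL1 and at 56.3 and 42.4 CPM in H1, a ratio of 398. HNF4A was at 795 and 745 CPM in MEL1 and at 12.3 and 26.9 CPM in H1, a ratio of 39.3. On the log2 scale the H1 S4 preparations differed more in HNF4A than those of any other group past S0. The 3 genes together took 3.90% and 4.19% of all input reads in the MEL1 S4 libraries, against 0.00880% and 0.0103% in H1. In bulk RNA, fewer cells of a type and less RNA per cell cannot be told apart.

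From S3 to S4 the secreted proteins and the transcription factor differed in direction in MEL1. The S4 mean was 2.64-fold that of S3 for AFP and 3.11-fold for VTN, while for HNF4A the S3 mean was 1.18-fold that of S4. In H1 the S3 mean was 2.82-fold that of S4 for VTN and 2.42-fold for HNF4A. The H1 AFP level was 1.30-fold higher at S4 in the means, a difference of about the spread between preparations. No test was made of these steps, since they rest on the levels that chose the genes.

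At S6 each gene was lower than at S4 in MEL1. AFP was at 245 CPM in both MEL1 preparations, 100-fold below S4. VTN was at 1473 and 1392 CPM, 13.7-fold below S4, and HNF4A at 241 and 199 CPM, 3.50-fold below S4. In H1 at S6, AFP was at 1.42 and 0.882 CPM, VTN at 22.0 and 19.2 CPM, and HNF4A at 24.9 and 23.6 CPM. AFP thus had the largest ratio of S4 over S6 of the 3 genes in each line, 5.43 in H1, although H1 AFP at S6 rests on 12 reads.

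The S6 libraries were not used to choose the genes, and the lines differed there in all 3. The log2 difference of MEL1 from H1 was 7.66 ± 0.28 (SE) for AFP (adjusted p = 1.8e-13), 6.11 ± 0.19 for VTN (adjusted p = 9.4e-15) and 3.18 ± 0.23 for HNF4A (adjusted p = 1.1e-09). In the means this is 213-fold for AFP, 69.5-fold for VTN and 9.08-fold for HNF4A. At S6 11.7% of the genes tested were called higher in MEL1 and 10.8% lower.

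Over both lines, S6 was above S0 in each gene. The log2 change was 8.56 ± 0.77 (SE) for VTN (adjusted p = 6.4e-07), 6.55 ± 0.66 for HNF4A (adjusted p = 1.8e-06) and 6.50 ± 0.82 for AFP (adjusted p = 1.8e-05). On leaving out 1 preparation the change ranged from 8.31 to 8.72 for VTN, from 6.01 to 7.25 for HNF4A and from 6.02 to 7.31 for AFP. Over all genes tested, the share called higher at S6 was 17.5%. Within MEL1 the S6 means were 332-fold (VTN), 110-fold (HNF4A) and 56.1-fold (AFP) above S0. In H1, HNF4A was 30.2-fold above S0, where its mean rests on 7 reads. VTN was at least 29.3-fold above S0 in H1, and AFP at least 1.64-fold.

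The order of the 8 line and stage groups differed between the genes. HNF4A was highest in MEL1 S3, then MEL1 S4, MEL1 S6, H1 S3, H1 S6 and H1 S4, with the S0 groups lowest. Its H1 S6 and H1 S4 libraries overlapped, and the difference between its S0 groups was not called. AFP was highest in MEL1 S4, then MEL1 S3 and MEL1 S6. Its H1 S4, H1 S3 and MEL1 S0 groups followed at 6.25, 4.82 and 4.36 CPM in the mean, with differences of about the spread between preparations, and H1 S6 and H1 S0 were lowest. VTN was highest in MEL1 S4, then MEL1 S3, MEL1 S6, H1 S3, H1 S4, H1 S6, MEL1 S0 and H1 S0, with no overlap between neighbours.

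**Figure D1:**
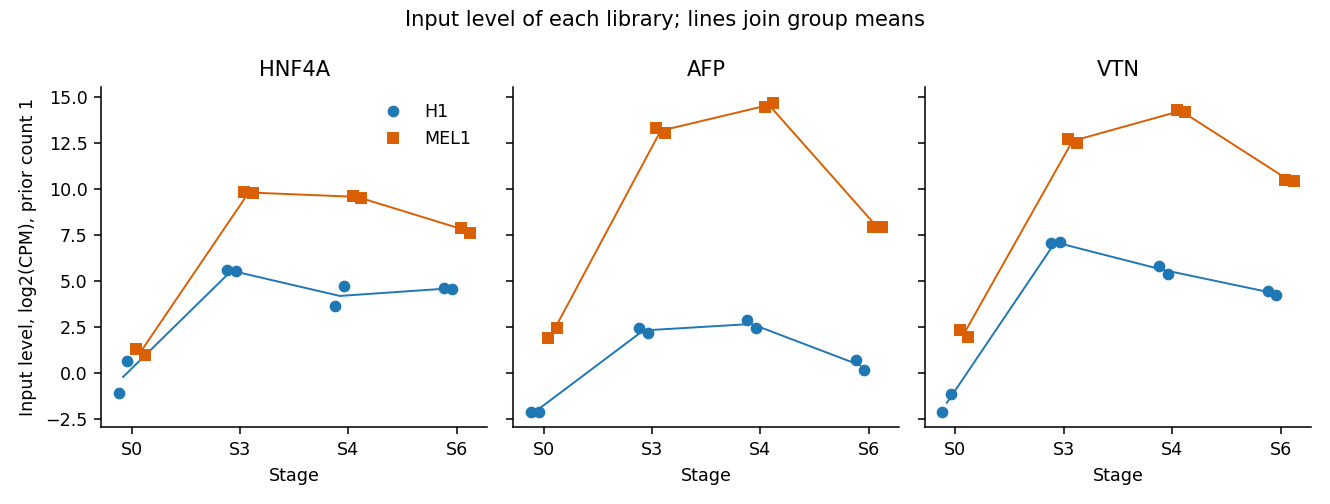
Input level of HNF4A, AFP and VTN by stage, as log2 CPM with a prior count of 1 (vertical axis). Each point is 1 input library, circles for H1 and squares for MEL1, and lines join the group means. The MEL1 libraries of AFP and VTN peak at S4 and those of HNF4A at S3, and from S3 to S6 every MEL1 library lies above every H1 library. The S3 and S4 levels are those that chose the genes.

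The correlations of the 3 genes over the 16 input libraries are a description. Pearson's r of log2 CPM was 0.98 between HNF4A and VTN, 0.94 between AFP and VTN and 0.90 between HNF4A and AFP. Within the 8 H1 libraries the values were 0.96, 0.95 and 0.85, and within the 8 MEL1 libraries 0.99, 0.97 and 0.95. The S3 and S4 libraries among them hold the levels that chose the genes, which largely fixes a high value over both lines, and libraries of a group share their stage and line, so these values describe the pattern and carry no p. Among the 6523 genes whose mean reached 5 CPM, the patterns most like VTN were those of APOA1 (r = 0.99), ELF1 (0.99), KIF12 (0.98), APOA2 (0.97) and NUAK2 (0.97). Nearest to HNF4A were LAMB1 (0.98), APOA1 (0.98), ATP7B (0.98), C4orf19 (0.97) and GATA5 (0.97). Near to AFP were APOB (0.97), LEMD3 (0.97), CTTN (0.97) and B4GALT1 (0.96). The AFP neighbours CTTN, B4GALT1 and LEMD3 were less alike within H1, with r of 0.26, 0.62 and 0.71.

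At S3, S4 and S6 other liver proteins differed between the lines in the same direction as AFP and VTN, and at S0 they were mixed. Of 29 secreted liver proteins listed, 7 have a merged peak, and 6 of these 7 were called higher in MEL1 at S3 and all 7 at S4, with none lower. Only genes with a merged peak were measured, and a gene may have gained its peak through the line where it is high. This limit holds for every gene list below, and such counts support nothing beyond a description. Over all genes tested, the share called higher was 13.3% at S3 and 15.6% at S4, and the share called lower 16.5% and 18.4%. The median log2 difference of the list was 5.61 at S3 and 6.35 at S4, against -0.04 and -0.13 over all genes. FGB and FGA, the fibrinogen chains, had log2 differences of 7.50 ± 0.20 and 7.20 ± 0.18 (SE) at S3 and of 8.83 ± 0.22 and 8.32 ± 0.19 at S4. APOB, the structural protein of liver lipoproteins, was at 9.26 and 10.7 CPM in H1 S3 and at 522 and 534 CPM in MEL1 S3. APOA1, the main protein of high-density lipoprotein, was at 123 and 89.3 CPM in H1 S4 and at 19243 and 19342 CPM in MEL1 S4. AMBP, a plasma protease inhibitor precursor, had a difference of 0.59 at S3 that was not called and of 2.97 ± 0.31 at S4 that was. APOE, which many cell types express, was already at 1372 and 1574 CPM in H1 S0. In MEL1 the summed level of the 7 genes lay between 32701 and 41810 CPM at S3 and S4 and between 9146 and 9305 CPM at S6, and in H1 it lay between 468 and 1089 CPM at these 3 stages. Much of the H1 sum was APOE, at 676 and 582 CPM in H1 S3 and at 461 and 325 CPM in H1 S4. The H1 sum was higher at S0, at 1378 to 1577 CPM. At S6 all 7 were called higher in MEL1 as well. At S0, 4 were called higher and 2 lower, the latter being APOE, at 537 and 698 CPM in MEL1, and AMBP, with 8 and 9 reads in H1 and none in MEL1.

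Transcription factors of the liver were less uniform. Of 20 measured, 10 were called higher and 3 lower in MEL1 at S3, and 9 higher and 3 lower at S4, with median log2 differences of 0.997 and 0.53. CEBPA, a hepatocyte differentiation factor, was at 2.56 and 0.824 CPM in H1 S3 and at 67.8 and 139 CPM in MEL1 S3, a fitted difference of 5.90 ± 0.62 (log2, SE). The H1 S4 preparations lay apart in CEBPA, at 1.23 and 12.5 CPM, and the S4 difference of 3.53 was 2.83 without the first and 6.13 without the second, called in each case. NR5A2, a nuclear receptor of bile acid and sterol genes, was higher by 2.26 ± 0.39 at S3, and FOXA3, a forkhead factor of liver genes, by 2.05 ± 0.21. ONECUT1, which acts in both liver and pancreas formation, was lower in MEL1, by 3.79 on the log2 scale at S3 and by 4.60 at S4: it was at 18.3 and 21.4 CPM in H1 S3 and at 1.38 CPM in the MEL1 S3 mean, from 2 and 10 reads. NR2F1, an orphan nuclear receptor, had differences of -1.55 ± 0.36 at S3 and -2.37 ± 0.35 at S4. Its H1 S4 preparations were at 276 and 779 CPM, and its S4 difference was -2.93 without the first and -1.43 without the second. At S3 it was -1.02 without MEL1 S3 replicate 1 and -2.43 without MEL1 S3 replicate 2.

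Among the genes whose products bind or act with vitronectin, PLAU, the urokinase protease, was called lower in MEL1 at S3 from 8 and 7 reads in H1 and 1 and 2 in MEL1, a call that was lost without H1 S3 replicate 1 or either MEL1 S3 preparation. ITGB5, a subunit of an integrin that binds vitronectin, was called higher in MEL1 at S4, with a difference of 1.43 ± 0.17 (SE, log2).

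Markers of other cell types moved beside the 3 genes. The 3 measured intestinal genes were all called higher in MEL1 at S3 and at S4, with CDX2 at 441 and 404 CPM in MEL1 S3 against 12.4 and 15.0 CPM in H1 S3, and their summed level was 444 to 492 CPM in MEL1 S3 and 20.1 to 21.0 CPM in H1 S3. At S4 CDX2 was at 14.8 and 52.8 CPM in H1, and its difference of 2.09 (log2) was 1.51 without the first and 3.34 without the second of these preparations. Among 4 genes listed as markers of extraembryonic endoderm, S3 had 2 called higher (DAB2 and AMN) and 2 lower in MEL1 (SOX17, -5.23 ± 0.55, and PTH1R), and S4 had 1 higher and 2 lower. DAB2 was at 24.8 and 23.0 CPM in MEL1 S3 and at 4.34 and 3.30 CPM in H1 S3. AMN had 16 and 23 reads in MEL1 S3 and 3 and 2 in H1 S3. PTH1R, 1 of the lower genes, was at 6.17 and 63.0 CPM in H1 S4 and at 3.36 and 5.16 CPM in MEL1 S4, and its difference of -3.05 was -0.52 and not called without H1 S4 replicate 2. Its S3 call was lost without H1 S3 replicate 2 or MEL1 S3 replicate 2. The summed level of the 4 markers was 29.1 to 29.8 CPM in MEL1 S3 and 33.4 to 36.9 CPM in H1 S3. Of 5 pancreatic genes, 3 were called lower in MEL1 at S3, and none was called higher at S3 or S4. MNX1, a factor of the early pancreas, was at 30.4 and 25.7 CPM in H1 S3 and at 1.75 and 5.19 CPM in MEL1 S3, and ISL1 had 6 and 7 reads in H1 S3 and none in MEL1 S3. PDX1 was not called, with differences of -0.20 at S3 and -0.26 at S4. The 5 genes summed to 53.8 to 64.5 CPM in MEL1 and to 94.1 to 168 CPM in H1 over S3 and S4. Of 8 genes of undifferentiated cells, 5 were called lower in MEL1 at S3 and 3 at S4, and their sum was 1620 to 1872 CPM in MEL1 S3 and 2730 to 2802 CPM in H1 S3. Among 5 markers of mesenchyme, S3 had 2 called higher and 1 lower in MEL1 and S4 had 2 higher, with COL1A1 at 4.09 ± 0.15 at S4, where the list summed to 723 to 791 CPM in MEL1 and to 70.6 to 95.7 CPM in H1. Leaving out a single preparation also ended the calls of TERF1 at S3 and S4, of LIN28B at S4 (both from the list of undifferentiated cells) and of the mesenchyme gene TWIST1 at S3. At S6 all 3 intestinal genes were called higher in MEL1, with sums of 450 to 500 CPM in MEL1 and 85.8 to 86.2 CPM in H1. Of the 5 pancreatic genes 2 were called higher and 0 lower at S6, and of the 4 of extraembryonic endoderm 2 higher and 0 lower. Of the 8 genes of undifferentiated cells 1 was higher and 1 lower, and of the 5 of mesenchyme 0 higher and 1 lower. The part of these cell types in the levels of HNF4A, AFP and VTN was not tested.

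**Figure D2:**
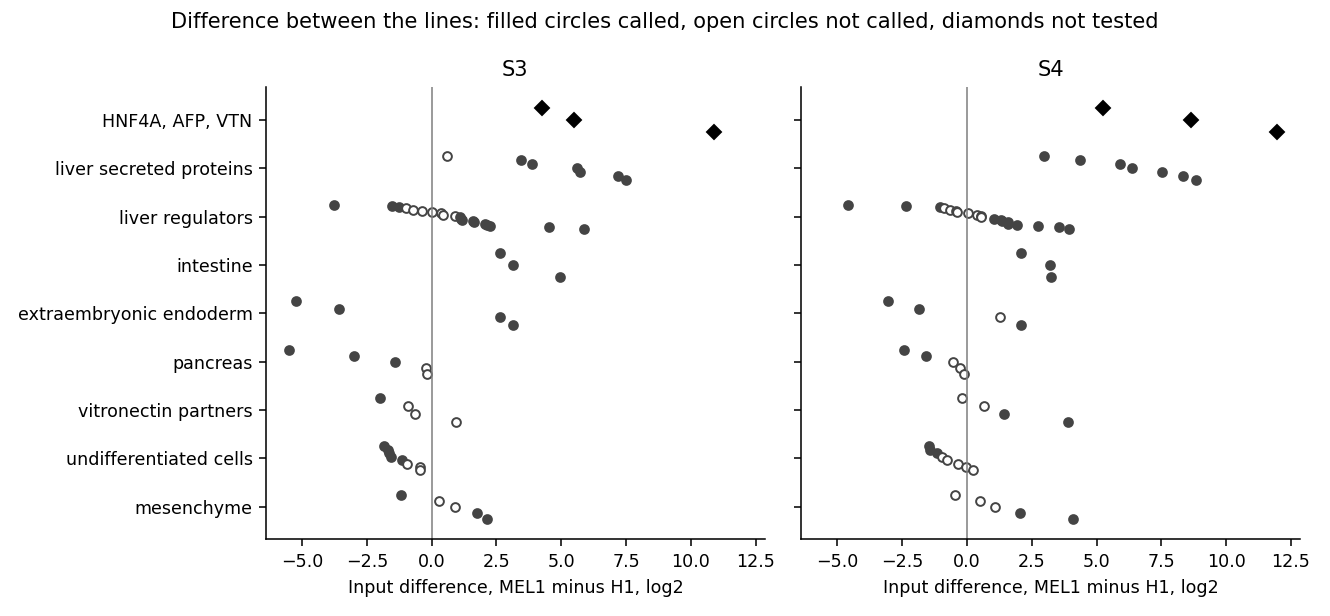
Difference in input level between the lines, MEL1 minus H1 on the log2 scale (horizontal axis), at S3 (left) and S4 (right). Diamonds are HNF4A, VTN and AFP from left to right, which were not tested there, and circles are genes of each list, filled where called and open where not. AFP lies to the right of every listed gene at both stages, and every gene of the secreted liver proteins lies right of zero.

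Methylation was read from IP over input at each peak, and over both lines HNF4A had 1 enriched peak at S3, S4 and S6, while every AFP and VTN peak was called depleted at these stages. A peak is named by its position in the gene as the table lists it, and fitted values are given where the input libraries compared, and the IP libraries compared, held at least 10 reads of it in sum. Input reads enter both the level and the ratio, and the input levels of S3 and S4 chose the genes. Ratios at S3 and S4, and changes to or from these stages, are therefore a description with counts of calls and no p, and S0 and S6 are the stages that the choice did not use. At S3, 1 of the 15 peaks was called enriched in IP and 10 depleted, where 30.3% of all peaks were called enriched and 31.0% depleted. At S4 it was 1 enriched and 9 depleted (20.8% and 32.1% of all peaks), and at S6 1 enriched and 10 depleted (28.4% and 34.6%). In H1 alone 11 of the 15 peaks had enough reads at S3, 8 at S4 and 6 at S6, so the values over both lines rest on MEL1 for the rest, where the genes are high, and the counts support nothing beyond this description.

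The enriched peak was HNF4A 2401. At S0 it was not called (-0.76, adjusted p = 0.44, and 0.35 without H1 S0 replicate 2), with 1 and 6 input and 3 and 2 IP reads in H1 and 3 and 6 input and 25 and 13 IP reads in MEL1. In the IP libraries it was at 82.9 and 83.7 CPM in H1 S3 and at 1970 and 2237 CPM in MEL1 S3. IP over input was 4.74 and 7.09 in H1 S3 and 6.17 and 6.49 in MEL1 S3, so the ratios of the lines overlapped although the levels did not. At S4 the ratios were 3.37 and 2.68 in H1 and 2.33 and 1.97 in MEL1, and at S6 they were 4.01 and 6.45 in H1 and 5.67 and 4.66 in MEL1. Over both lines the log2 enrichment was 2.35 ± 0.51 (SE) at S6 (adjusted p = 0.00024 by edgeR's quasi-likelihood test), and the fitted values at S3 and S4 were 2.59 and 1.23. This places the peak above 90.5% of all peaks at S3, 78.4% at S4 and 88.4% at S6. Its change from S3 to S4 was -1.36 (log2) over both lines, -1.02 in H1 and -1.55 in MEL1. The shallow MEL1 S4 IP libraries enter the values over both lines and in MEL1, and their part was not tested.

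At S3 and S6 the same peak took a larger share of the HNF4A reads in IP than in input in each line. It held 29.4% of the HNF4A input reads in H1 S3 and 32.9% in MEL1 S3, and 62.2% and 75.2% of the IP reads. In MEL1 S6 it held 33.6% of the input reads and 80.3% of the IP reads. In H1 S4 the IP shares of the preparations were 35.5% (Wilson 95% interval 31.6% to 39.5%) and 53.1% (49.6% to 56.6%), and the first of these lies within the input interval of the same preparation, 27.6% to 53.8%. Such intervals cover counting error only. A share within 1 gene does not depend on how IP and input libraries are scaled against each other.

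**Figure D3:**
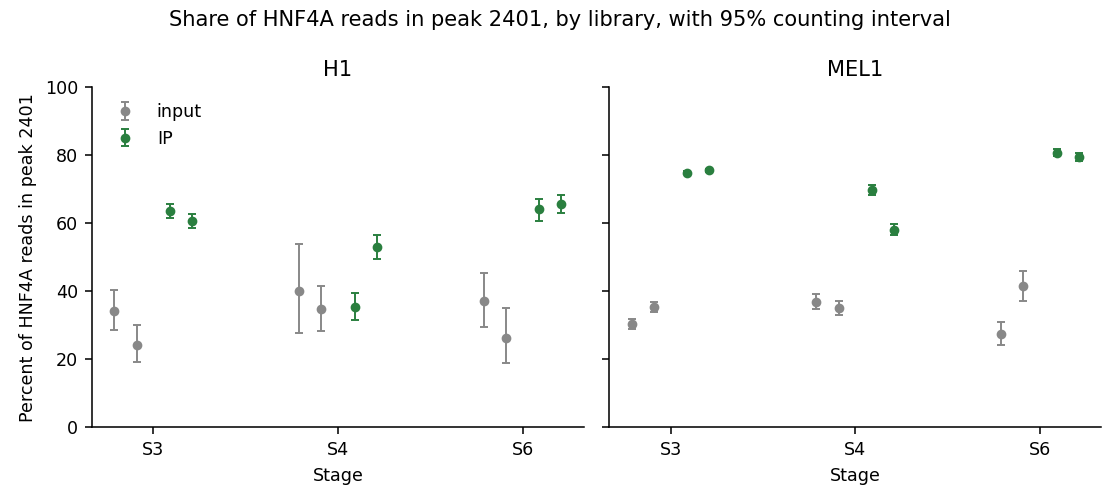
Percent of the HNF4A reads of a library that fell in peak 2401 (vertical axis), at S3, S4 and S6, for H1 (left) and MEL1 (right). Grey points are input and green points IP libraries, with Wilson 95% intervals for counting error. At these 3 stages the IP points lie above the input points of the same line and stage in every case but H1 S4, where 1 IP library is at 35.5%.

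Over both lines the other 5 HNF4A peaks were below 2401 in enrichment at S3, S4 and S6. Peak 3401 was called depleted at S3 (-1.87) and at S6 (-4.09), and without either MEL1 S3 preparation the S3 call was lost. The S6 value of peak 3401 ranged from -4.75 to -3.27 on leaving out 1 S6 preparation. This peak held 216 and 196 input reads but only 86 and 100 IP reads in MEL1 S3, although the IP libraries were deeper. Over both lines the other 4 were not called at any of S3, S4 and S6. Fitted within a line, peak 2901 was also called enriched in H1 S4 (1.21, where 23.5% of all peaks were called enriched), and peak 2801 was also called depleted in MEL1 S3 (-1.38, 32.5% of all peaks depleted) and in MEL1 S6 (-2.79, adjusted p = 0.00059, 36.5%). Peak 3401 was also called depleted in MEL1 S4 (-2.45, 34.9%). Peaks 2801 and 2901 were lower in MEL1 than in H1 at S6 in their IP to input ratio. Peak 2901 had ratios of 2.16 and 1.46 in H1 S6 and of 0.468 and 0.905 in MEL1 S6, a log2 difference of -1.47 (adjusted p = 0.075). Peak 2801 had ratios of 1.34 and 1.29 in H1 S6 and of 0.0929 and 0.209 in MEL1 S6, a difference of -3.21 (adjusted p = 0.093), from 8 and 11 H1 input reads. Neither was called with the preparation as a block (adjusted p = 0.26 for 2901 and 0.15 for 2801). The 2801 call was lost without any 1 of the S6 preparations, and that of 2901 without H1 replicate 1, H1 replicate 2 or MEL1 replicate 1. In all, 2.60% of all peaks were called lower in MEL1 at S6. Of the 15 peaks 6 had enough reads in each line at S6, and these 2 were the ones called.

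The AFP peaks 401 and 701 were depleted in IP wherever they could be measured. Peak 701 held 20503 and 22962 input reads in MEL1 S3 against 635 and 976 IP reads, and 28205 and 36463 input reads in MEL1 S4 against 343 and 247 IP reads. IP over input summed over the gene was 0.0113 and 0.0195 in MEL1 S3, 0.00781 and 0.00399 in MEL1 S4 and 0.0170 and 0.0250 in MEL1 S6. The S4 ratios lie below those of S3 and S6, and S4 is also where the AFP input is highest. The log2 enrichment over both lines was -5.27 and -6.31 at S3 for 401 and 701, -7.01 and -6.81 at S4, and -5.66 and -6.59 at S6. In H1 S6 these peaks held 3 and 3 and 5 and 1 input reads and no IP read, so the S6 values rest on MEL1, where they were -5.06 and -6.12 (adjusted p = 8.8e-11 and 1.6e-13 by edgeR's quasi-likelihood test). In H1, AFP had 48 input reads and 5 IP reads over the S3 libraries and 68 and 3 over the S4 libraries, too few for a value of its own.

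At S0 the AFP ratios were much closer to even. MEL1 S0 had IP over input of 0.378 and 0.263 over the gene, from 17 and 24 input reads. The enrichment of peaks 401 and 701 at S0 was -1.67 (adjusted p = 0.071) and -1.58 (adjusted p = 0.046), and VTN peak 1428 was at -1.93 (adjusted p = 0.061). These were the 3 peaks called of the 5 with enough reads, and VTN peak 78 (-1.54, adjusted p = 0.20) was not, with 30.7% of all peaks called enriched and 24.9% depleted at S0. These calls were lost without either MEL1 S0 preparation. H1 S0 held no input and no IP read of either AFP peak and 0 and 1 input reads of VTN peak 1428, so these S0 values rest on MEL1. The S0 values rest on few reads.

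Over both lines all 7 VTN peaks were called depleted at S3, S4 and S6, where the S3 and S4 calls use the input that chose the gene. Their log2 enrichment ranged from -6.33 to -3.25 at S3, from -6.57 to -3.69 at S4 and from -6.39 to -2.92 at S6. In H1 S6 only peak 1428 had enough reads, at -2.43 (adjusted p = 1.6e-07), and the other 6 rest on MEL1, where the 7 peaks lay between -6.42 and -3.13 (adjusted p = 1.2e-07 or lower). At S3 the lowest was peak 1128, which only 1.04% of all peaks lay below, and the highest in the fit over both lines was peak 1428. In MEL1 S3 peak 1778 was higher, with ratios of 0.117 and 0.107 against 0.0766 and 0.0555 in H1 S3, the latter from 6 and 4 IP reads. Peak 1428 held 10419 and 10374 input and 2471 and 2444 IP reads in MEL1 S3, or ratios of 0.0648 and 0.0738. In H1 S3 its ratios were 0.111 and 0.166, above those of MEL1. Within the gene, 39.2% of the VTN input reads and 58.8% of the IP reads fell in this peak in MEL1 S3, and 36.6% and 62.3% in H1 S3. At S6 the IP share was 67.8% in MEL1 and 74.7% in H1, so the peak was favoured within VTN although IP over input was below 1.

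The VTN ratios of MEL1 were lowest at S4. Over the gene they were 0.0436 and 0.0487 at S3, 0.0154 and 0.0189 at S4 and 0.0465 and 0.0724 at S6, with no overlap between S4 and the other stages. In H1 they were 0.0739 and 0.0897 at S3, 0.0462 and 0.108 at S4 and 0.0834 and 0.138 at S6, which overlap. As for AFP, the lowest ratios stand where VTN input is highest, and the MEL1 S4 IP libraries are the shallowest of all.

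Changes of the ratio between stages were called in few peaks over both lines. Of the 15 peaks none was called from S3 to S4 (6.60% of all peaks), none from S3 to S6 (0.00% of all peaks) and 1 was called higher from S4 to S6 (5.31% of all peaks). That peak was VTN 1428 at 2.11 ± 0.72 (SE, log2), and it was not called with the preparation shared by an IP and an input library as a block (1.63) and was lost without any 1 of the S4 and S6 preparations but H1 S4 replicate 2. With the block, VTN peak 1228 was called higher (2.10), AFP peak 401 was called lower from S3 to S4 (-2.19) and higher from S4 to S6 (2.44), and HNF4A 2401 was called lower from S3 to S4 (-1.28). With a separate mean for every combination of line, stage and library type, 6 peaks were called in each of the steps from S3 to S4 and from S4 to S6 over both lines, where that model called 22.1% and 23.6% of all peaks. Within MEL1 in that model, 7 of 15 peaks were called lower from S3 to S4 (18.5% of all peaks), and 8 of the 14 with enough reads were called higher (12.1%) and 1 lower (9.99%) from S4 to S6. The median change of the peaks was -1.06 and 1.29 in these steps, beside medians of -0.68 and 0.36 over all peaks, which another scaling (relative log expression) moved to -0.10 and 0.00. In H1, 1 of the 7 peaks with enough reads was called higher and 1 lower from S3 to S4 (9.01% and 22.1% of all peaks), and 0 of 5 from S4 to S6 (26.0% in either direction). These counts are by edgeR's quasi-likelihood test on input counts that include those which chose the genes, and a difference between the lines in these steps was not tested.

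The ratios of the lines at S3 and S4 are given as values, since the input levels that chose the genes enter them. At S3 the log2 difference of MEL1 from H1 had a median of -0.33 over 6 HNF4A peaks (range -2.31 to 0.17) and of -1.01 over 5 VTN peaks (range -1.49 to 0.69). At S4 it had a median of -0.91 over 4 HNF4A peaks and of -2.82 over 4 VTN peaks (range -3.83 to -2.45). Over all peaks the median was -0.07 at S3 and -0.24 at S4.

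**Figure D4:**
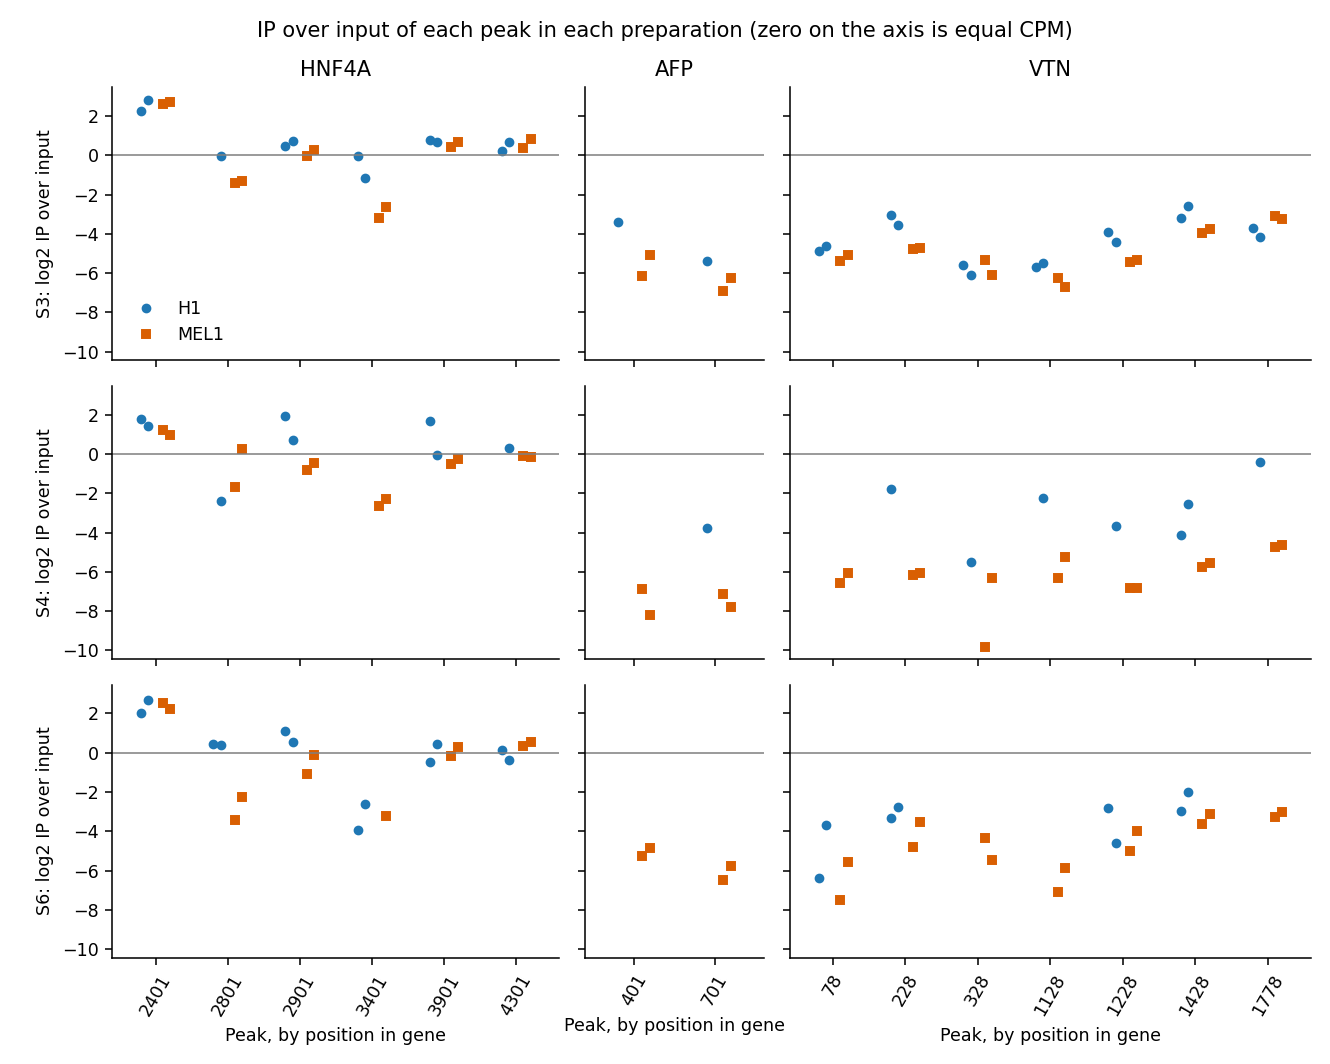
Log2 IP over input of each peak (vertical axis, zero is equal CPM), for HNF4A, AFP and VTN (columns) at S3, S4 and S6 (rows), with peaks named by their listed position. Each point is 1 preparation with at least 5 input reads and 1 IP read, circles for H1 and squares for MEL1. HNF4A 2401 lies above zero in every preparation, and every AFP and VTN point lies below zero.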

How the data were processed

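Each of 2 preparations of H1 and MEL1 cells at S0, S3, S4 and S6 gave an input and an IP library, 32 in all. The authors deposited raw read counts per merged peak, made with MeRIPtools in 50-bp bins of Ensembl version 94 transcripts. The aligner and build are not given in the sources used here. Gene names matched 7938 of 7978 genes. A gene's input level sums its merged peaks, so levels are not compared between genes.

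Counts were tested as deposited with edgeR 4.0.16 (quasi-likelihood test, TMM scaling, a total of at least 10 reads) over 7973 genes and 26104 peaks, with Benjamini-Hochberg adjustment over each whole table. A call needs an adjusted p under 0.1 and at least a 2-fold change. S6 against S0 was fitted with line and stage, peaks with line and stage by library type, and values within or between lines with a mean for each group. Peak values needed at least 10 reads summed over the libraries compared, in input and in IP. Log2 levels carry a prior count of 1. Alternatives were DESeq2 1.42.0, other scalings and filters, input fits without mitochondrial genes, replicate blocks, within-line values and leaving out each preparation. Scripts were tested on simulated data.

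Named are HNF4A, AFP and VTN with all their peaks, the 5 genes most similar to each in input pattern, and members of cell type lists. Genes and lists were chosen with earlier results of these data known. Tests of IP over input at S3 and S4, between these and other stages and between the lines had been planned, but where they use S3 or S4 input no p is given, because the input levels there chose the genes. Results for some genes are not reported here. The input and IP library of a preparation come from the same RNA, which the peak block pairs, and their deviations correlated from -0.154 to 0.0452. Same-numbered preparations of different stages correlated from -0.00784 to 0.128. Depth limits the precision of low counts, and intervals cover counting error only.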

Additional observations from a re-analysis of the deposited data

Results flagged for a closer look

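At S6 the lines differed in IP over input at 2 HNF4A peaks by the test of that difference (edgeR's quasi-likelihood test). The log2 difference of MEL1 from H1 was -3.21 ± 0.96 (SE) at peak 2801 (adjusted p = 0.093) and -1.47 ± 0.42 at peak 2901 (adjusted p = 0.075), with both H1 preparations above both MEL1 preparations. Neither was called with the preparation as a block, and peak 2801 rests on 8 and 11 input reads in H1.

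VTN moved in opposite directions between S3 and S4 in the lines, in every preparation. The H1 mean at S3 was 2.82-fold that of S4, and the MEL1 mean at S4 was 3.11-fold that of S3. This difference between the lines was not tested, since these levels chose the gene. The groups hold 2 preparations each, too few to ask whether a single preparation stands apart.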

How the results depend on the processing

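The calls on input levels of HNF4A, AFP and VTN kept their direction and side of the threshold under DESeq2, both other scalings, both filters, the replicate block and, for S6 against S0, a mean for each line and stage. Leaving out 1 preparation changed 1 of them: the HNF4A difference at S0 ranged from 0.56 to 2.93 and was called without H1 S0 replicate 2. The number of liver transcription factors called higher in MEL1 was 9 to 11 at S3 and 8 at S4 on leaving out a preparation, against 10 and 9 with all. The replicate block changed no input call of the 3 genes (HNF4A at S0 1.27, S6 against S0 6.53).

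The counts of peaks called enriched or depleted at S3, S4 and S6 stayed within 1.5 times under each alternative fitted over both lines. In H1 alone they were 1 enriched and 5 depleted of 11 peaks with enough reads at S3. At S4 they were 2 and 3 of 8 in H1, and at S6 1 and 1 of 6. From S3 to S4, where 0 of the 15 peaks were called, the replicate block gave 2 and a mean for each line, stage and library type 6, with 0 to 1 on leaving out a preparation. From S4 to S6, where 1 was called, the block gave 2, that model 6 and scaling within IP and within input libraries 0, with 0 to 2 on leaving out a preparation. For the difference between lines at S6, where 2 were called, the block, relative log expression scaling and scaling within library types each gave 0, with 0 to 1 on leaving out a preparation. The cause was not tested. Of 62 further peak results given as counts or ranges, 35 changed sign in some alternative, 23 were called in some alternative and 1 lost a call. The S0 enrichment of HNF4A peak 2401 ranged from -1.81 to 0.35 on leaving out a preparation, and DESeq2 called it depleted (-1.64, adjusted p = 0.044).

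Relative log expression scaling moved the median enrichment of all peaks by -0.61, -0.64, -0.16 and -0.51 (log2) at S0, S3, S4 and S6, and scaling within library types by 0.15, 0.17, 0.52 and 0.28, so IP over input is a relative scale. The few reads at S0, the AFP reads of H1 and the shallow MEL1 S4 IP libraries limit those values.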
